A study of Mus musculus with 6 samples.

Results

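The loci described here are expressed stretches of the mouse genome that the transcript assembly placed in the gene tables without a gene name. They were selected on their measured values: a locus had no name, reached at least 5 FPKM (fragments per kilobase and per 1000000 mapped fragments) in 1 or more pools, and reached an estimated count of at least 100 in 1 or more pools. This rule took 318 of 11771 unnamed loci, in tables of 62490 loci in all. Because the levels chose the loci, the levels and the differences between pools are given as a description with no test. For scale, 11103 named loci passed the same minima.

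RNA was sequenced from blastocyst-derived mouse embryonic stem cells of the strain C57BL/6J with the genotype Mll1fl/fl; Cre-ER TM. All groups carry these alleles: a floxed Mll1 (Kmt2a), the gene of a histone H3 lysine 4 methyltransferase, and a tamoxifen-inducible Cre, and no tamoxifen is named in the labels. One group was untreated, one received 1 µM 1α,25-dihydroxyvitamin D3 (VD3) for 5 days, and one received the same VD3 with 100 µM MM-401, an inhibitor of MLL1, for 5 days (VD3 plus MM-401, called the combined treatment below). No group received MM-401 alone. Each group has 2 libraries, which the labels call biological duplicates, but the tables hold 1 pooled column per group. No value per library was used, so the differences between pools carry no check across replicates. The error given is the lower and upper bound that the authors deposited for each FPKM, whose confidence level is not given. The cells grew with leukemia inhibitory factor on fibroblast feeder cells, in medium with fetal calf serum or serum replacement, and the labels give no time for the untreated cells. The columns of the untreated and of the combined pool were matched to their groups by the part of the name that only those titles share, and the rest of both column names is unexplained.

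An assembler joins overlapping reads into transcripts and names a locus only where it meets the gene annotation it was given. Loci left without a name can be unannotated RNAs, parts of annotated transcripts that were not joined, or genes that the annotation in use did not hold. Processed pseudogenes are a frequent kind of the last: they are copies of messenger RNAs that were reverse transcribed and inserted elsewhere in the genome, lack introns, and keep most of the sequence of the coding gene they came from. Reads from the coding gene and from such a copy are hard to tell apart where the sequences are the same.

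Most of the unnamed loci lay in pseudogenes. When set against GENCODE vM21 and the RefSeq gene table, both on GRCm38 (the sequence of mm10), 180 of the 318 had at least 50% of their span in a pseudogene. Of these, 128 lay in a GENCODE pseudogene and 52 only in a RefSeq one. A further 90 loci touched no gene of either annotation and were not checked for repeats, 37 lay inside another gene, 9 overlapped a gene over a smaller share, and 2 lay in exons of coding genes. With a minimum of 80% in place of 50% the pseudogene class held 158 loci, with 1 base it held 194, and the class outside genes held 90 each time.

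The pseudogene loci can be read against the coding gene that each pseudogene resembles most. The sequences below show 4 of them beside the matching part of that coding gene, chosen because they include a locus with a very high FPKM and loci that were lower in a treated pool. Each is the GENCODE vM21 transcript sequence on GRCm38, 5′ to 3′ on the strand of the pseudogene, and capitals mark bases that do not match the coding gene in the alignment. The coding stretches are from GENCODE vM21 coding sequences, with positions counted from 1 at the first coding base. The first pair is the part of XLOC_020274 that lies in Gm49138 (chr15:18385349-18385441, minus strand) and Rack1 positions 859 to 951.
Gm49138: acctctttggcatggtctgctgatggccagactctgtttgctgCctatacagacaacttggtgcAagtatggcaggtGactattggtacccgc
Rack1: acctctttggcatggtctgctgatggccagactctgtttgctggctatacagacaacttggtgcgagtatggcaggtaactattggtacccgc
The second pair is XLOC_022338 in Gm5675 (chr16:78117877-78117936, plus strand) and Mapk3 positions 889 to 948.
Gm5675: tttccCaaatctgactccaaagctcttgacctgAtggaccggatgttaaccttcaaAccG
Mapk3: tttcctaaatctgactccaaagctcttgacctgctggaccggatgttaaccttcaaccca
The third is XLOC_018593 in Gm6852 (chr14:55350376-55350594, minus strand) and R3hdm2 positions 329 to 548.
Gm6852: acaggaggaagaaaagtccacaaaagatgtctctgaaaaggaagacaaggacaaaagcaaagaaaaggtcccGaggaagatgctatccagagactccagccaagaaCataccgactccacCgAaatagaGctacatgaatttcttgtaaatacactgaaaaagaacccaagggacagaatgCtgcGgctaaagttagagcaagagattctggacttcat
R3hdm2: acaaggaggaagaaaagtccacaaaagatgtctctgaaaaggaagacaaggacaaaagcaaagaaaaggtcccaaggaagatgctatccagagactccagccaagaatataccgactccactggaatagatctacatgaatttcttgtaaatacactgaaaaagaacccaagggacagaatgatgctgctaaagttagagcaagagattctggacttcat
The last is the part of XLOC_024712 that lies in Trp53-ps (chr17:54419680-54419855, plus strand) and Trp53 positions 1 to 176.
Trp53-ps: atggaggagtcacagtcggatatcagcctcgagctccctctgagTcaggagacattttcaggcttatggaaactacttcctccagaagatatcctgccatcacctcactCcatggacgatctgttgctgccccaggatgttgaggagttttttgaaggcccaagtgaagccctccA
Trp53: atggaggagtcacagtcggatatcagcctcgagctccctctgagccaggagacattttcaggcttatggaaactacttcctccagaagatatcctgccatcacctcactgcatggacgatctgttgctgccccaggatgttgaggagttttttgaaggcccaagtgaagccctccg
The stretches differ from the coding genes at 3 bases over 93 for Rack1, 4 over 60 for Mapk3, 7 over 219 for R3hdm2 and 3 over 176 for Trp53. The R3hdm2 alignment also holds 1 gap, where the pseudogene lacks a base.

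The unnamed loci were concentrated on a few chromosomes. Chromosomes 13 to 19 held 221 of the 318 (69.5%), against 34.6% of all unnamed loci and 24.0% of the named loci that passed. Chromosome 14 held 44, chromosome 18 held 41, chromosome 17 held 39 and chromosome 15 held 38, while chromosome 7 held 4 and chromosome Y none. On chromosomes 13 to 19, 128 loci lay in a GENCODE pseudogene and 28 in a pseudogene of RefSeq alone. On the other chromosomes, 0 lay in a GENCODE pseudogene and 24 in a pseudogene of RefSeq alone. The names in the deposited tables are uneven in a similar way. They include 8027 of 9387 GENCODE pseudogenes on chromosomes 1 to 12 and X (85.5%), and 1242 of 3326 on chromosomes 13 to 19 (37.3%). Chromosomes 9, 10 and 12 were exceptions, with 248 of 524, 140 of 590 and 240 of 759 named, and they held 5, 7 and 6 of the unnamed loci. Loci outside annotated genes were spread more evenly, with 33 on chromosomes 13 to 19 and 57 on the others.

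**Figure D1:**
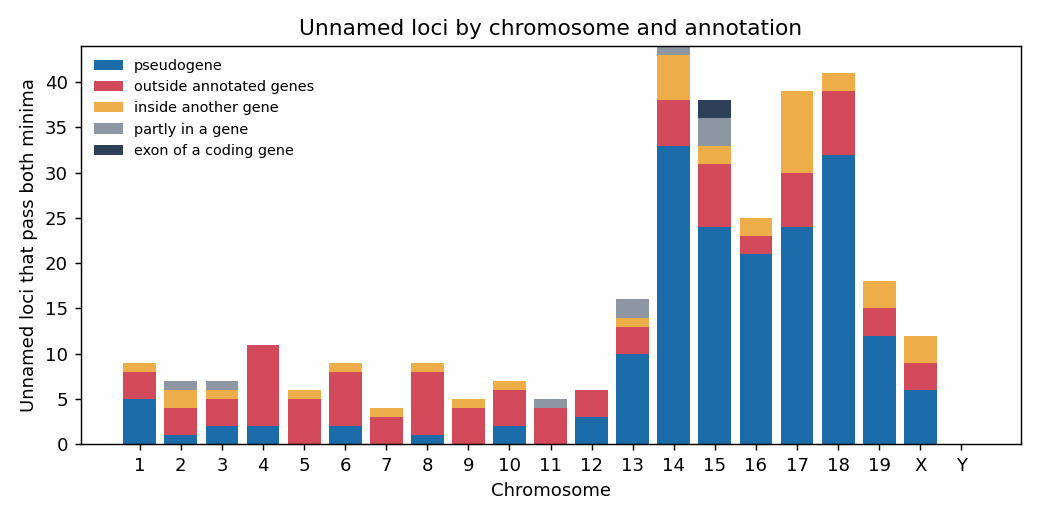
Number of unnamed loci that passed both minima (vertical axis) on each chromosome (horizontal axis), coloured by the annotated feature each lies in. Chromosomes 13 to 19 hold 221 of the 318 loci, 156 of them in pseudogenes.

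The loci were short. Their median span was 254 bases, from 53 to 937253, against a median of 31892 bases for the named loci that passed, and 305 of the 318 had a single transcription start in the assembly. The median span was 281 bases in pseudogenes, 135 bases outside annotated genes and 2346 bases inside other genes. The shortest, XLOC_026124, spans 53 bases on chromosome 18, and the longest, XLOC_027123, spans 937253 bases on chromosome 19 across Trpm3, a cation channel gene. XLOC_027123 had 2.98 FPKM untreated, 3.49 with VD3 and 5.33 with the combined treatment.

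FPKM depended steeply on this span. FPKM divides by the length that a fragment can start in, and 1 estimated count was worth a median of 20.1 FPKM in the 65 loci of up to 100 bases, 0.145 FPKM above 200 and up to 500 bases and 0.0148 FPKM in the 26 loci above 1000 and up to 5000 bases with a single start. The unnamed loci thus held 16.8% of all FPKM in the untreated pool, 14.01% with VD3 and 20.2% with the combined treatment, but 0.257%, 0.273% and 0.322% of the estimated counts. Loci of up to 100 bases made up 76.5% of the summed FPKM of the unnamed loci in the untreated pool and 4.99% of their counts. The FPKM worth of a count was within 1% of the untreated pool in 301 of 316 loci for VD3 and 303 of 317 for VD3 plus MM-401, so differences between pools are nearly the same in either unit.

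Most of the highest levels were those of short loci. XLOC_024908, 60 bases on chromosome 17 (chr17:92713839-92713898), stood at 16344 FPKM untreated, 13457 with VD3 and 48582 with the combined treatment, which came from estimated counts of 586, 483 and 1743. It touches no annotated gene, and the nearest coding gene, Adcyap1, which encodes a neuropeptide, lies 485118 bases away at 0.0826, 0.0863 and 0.414 FPKM. XLOC_020274 (chr15:18385291-18385445), the Gm49138 locus shown above, stood at 6045, 7815 and 15919 FPKM in the same order, with estimated counts of 5458, 7056 and 14374. In the combined pool both loci were high and their deposited intervals lay above those of the untreated pool.

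Of the other loci among the 8 highest by mean FPKM, XLOC_024702 had 4484, 4989 and 20103 FPKM and XLOC_057633 had 2936, 3440 and 21180 FPKM in the untreated, the VD3 and the combined pool. Both lie outside annotated genes. XLOC_019454, which overlaps the pseudogene Gm20564 in part, had 4419, 7282 and 11652 FPKM, and with a span of 5819 bases it was not short. XLOC_027772, outside annotated genes on chromosome 19, had 5412, 7167 and 10368 FPKM and the highest combined-pool count after XLOC_020274, at 13086. The 2 pseudogene loci among them, XLOC_022338 in Gm5675 and XLOC_038716 in Gm46855, were highest with VD3 alone, at 8966 and 10668 FPKM, beside 6296 and 5368 FPKM untreated and 6643 and 5155 FPKM with the combined treatment.

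**Figure D2:**
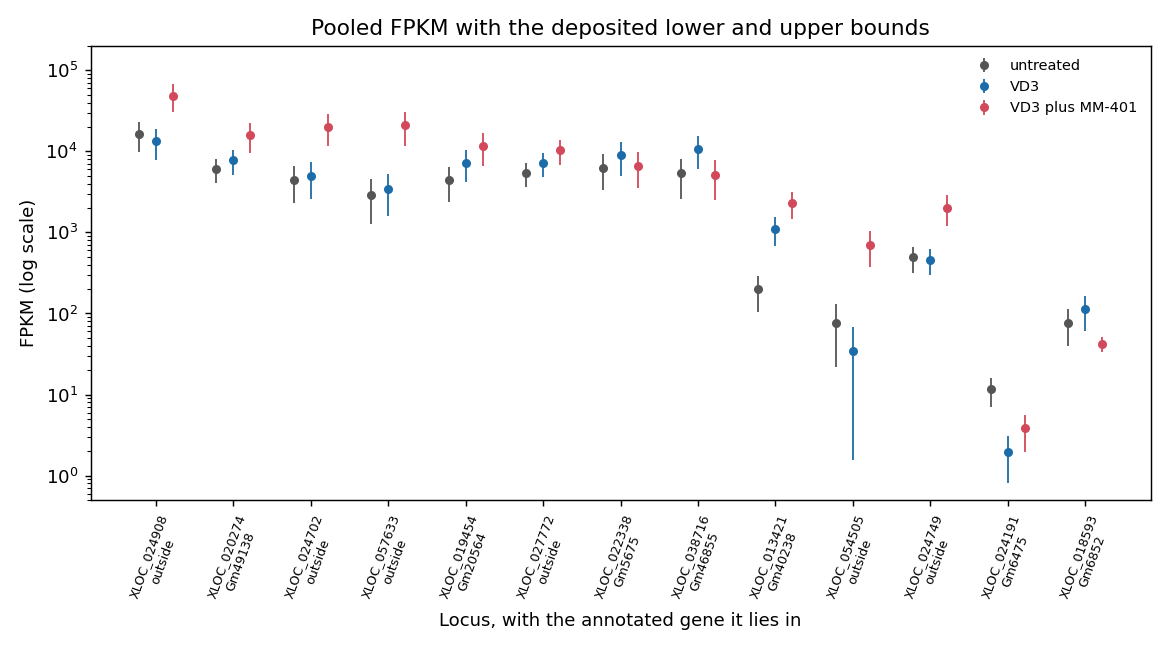
FPKM (log axis) of 13 unnamed loci in each pool, with bars from the lower to the upper bound that the authors deposited; the label gives the annotated gene each locus lies in or overlaps. The loci on the left are the 8 highest by mean FPKM, and XLOC_024191 is lower with VD3 than untreated.

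The question of the design is what VD3 changed, and what MM-401 added to it. Below, a difference is that of log2(FPKM + 1), and a locus is called higher or lower where it differs at least 2-fold on this scale and the deposited intervals of both pools do not overlap. With VD3 against untreated, 7 of the 318 unnamed loci were called higher and 13 lower. Over all 11421 loci that pass, 0.674% were called higher and 3.83% lower, so the share of the unnamed loci called lower, 4.09%, was near the background, and the share called higher rested on 7 loci. As counts scaled to the pool total, 3 were called higher and 20 lower. That setting also puts the pseudocount and the intervals on the scale of the counts. Which of these changes altered the calls was not tested. In FPKM, the call of XLOC_018777, higher on 3.09 against 0 counts, is lost once the intervals are at least as wide as counting error. The median difference was 0.34, against 0.36 over all loci that pass.

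The loci lower with VD3 included both pieces of Gm6475, a copy of Cd2ap, the gene of an adaptor protein of the actin cytoskeleton. XLOC_024191 (chr17:3311926-3312944) stood at 11.6 FPKM untreated (deposited bounds 7.09 to 16.03), at 1.95 FPKM with VD3 (0.816 to 3.08) and at 3.82 FPKM with the combined treatment. XLOC_024192, the next piece, had 16.4, 3.26 and 3.93 FPKM. Cd2ap itself had 25.7, 4.09 and 7.23 FPKM and was called lower as well.

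The other loci called lower with VD3 comprised 5 more pseudogene pieces, 1 locus inside the noncoding RNA gene 4930549P19Rik, 1 that overlaps Gm33458 in part and 4 outside annotated genes. XLOC_024330, inside 4930549P19Rik, had 51.6, 11.6 and 11.4 FPKM. XLOC_018401 in Gm19061 had 58.9, 20.0 and 15.8 FPKM. Gm3875 on chromosome 19, assembled as 3 pieces, was lower throughout: XLOC_026681 had 9.79, 2.97 and 1.19 FPKM, XLOC_027675 had 11.3, 5.28 and 2.07 FPKM, and XLOC_027676 had 6.57, 1.55 and 1.07 FPKM. All 3 pieces were called lower with the combined treatment, and XLOC_027676 also with VD3.

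Among the 7 loci called higher with VD3, XLOC_013421 in the RefSeq pseudogene Gm40238 on chromosome 12 had the largest difference with counts above 100 in both pools. It stood at 198 FPKM untreated (103 to 293), 1115 with VD3 (687 to 1544) and 2326 with the combined treatment (1480 to 3171), and the interval of each treated pool lay above that of the untreated pool. XLOC_017433, which spans 12254 bases outside annotated genes and lies 24079 bases from Klf5, a transcription factor gene of pluripotent cells, had 2.15, 9.37 and 9.46 FPKM, while Klf5 had 106, 115 and 102 FPKM. XLOC_024697 in AC132235.1, a copy of the mitochondrial ribosomal protein gene Mrpl45, had 652, 1740 and 603 FPKM and was called higher with VD3 and lower with the combined treatment against VD3.

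Addition of MM-401 gave another pattern. With the combined treatment against untreated, 68 of the 318 unnamed loci were called higher and 13 lower, beside 4.36% higher and 2.32% lower over all loci that pass. With the combined treatment against VD3, 62 were called higher and 6 lower, beside 0.989% and 0.228% over all loci. The comparisons share their pools: each pool enters 2 of the 3. The unnamed loci made up 54.9% of all loci called higher in the combined treatment against VD3, 62 of 113, although they are 318 of the 11421 loci that pass. Their median difference was 0.13, against 0.03 over all loci.

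The rule favours such loci, since 64 of the 318 met both minima in the combined pool alone, against 18 in the untreated and 14 in the VD3 pool alone. A choice on the untreated pool, added after the data were seen, applies the minima to neither pool of the comparison of the combined treatment with VD3 alone. Which libraries formed the assembly is not stated, so a selection of unnamed loci at that step remains possible under either choice. The choice on the untreated pool is described below. That choice kept 207 unnamed loci, of which 24 (11.6%) were called higher and 3 lower with the combined treatment against VD3. Among the 10172 named loci that met the minima in the untreated pool, 44 (0.433%) were called higher and 13 lower. The median difference of the 207 unnamed loci was -0.08, against 0.01 over all loci chosen in this way. The sign of their median in this comparison thus depends on the choice of loci.

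The loci called higher were mainly those outside annotated genes. In the combined treatment against VD3, 48 of these 90 were called higher and 0 lower, with a median difference of 1.75, and 81 of the 90 lay above 0. In pseudogenes 8 of 180 were called higher and 5 lower, with a median difference of -0.15. The 37 loci inside other genes had 5 called higher and 1 lower. Chosen on the untreated pool, the class outside genes kept 38 loci with 18 called higher, and the pseudogene class kept 146 with 5 called higher. The named pseudogene loci that pass, 962 in all, had 19 called higher, 10 lower and a median of -0.07.

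The summed estimated counts of the class outside genes are raised in the combined pool by the rule itself, since 87 of the 90 loci met both minima there, against 38 in the untreated and 44 in the VD3 pool. The 90 loci outside annotated genes held 23000 counts in the untreated pool, 25430 with VD3 and 54408 with the combined treatment. The 180 pseudogene loci held 112330, 143615 and 148122. Over the 38 loci outside genes chosen on the untreated pool the sums were 20337, 21681 and 42071 counts, and over the 146 pseudogene loci chosen in this way 109748, 139428 and 142994. Against untreated cells, 43 of the 90 loci outside genes were called higher with the combined treatment and 1 lower, and with VD3 alone 5 were called higher and 4 lower.

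Span and class went together. Of the 65 unnamed loci of up to 100 bases, 28 were called higher in the combined treatment against VD3, with a median difference of 1.69. The numbers were 16 of 61 above 100 and up to 200 bases, 12 of the 101 loci above 200 and up to 500 bases and 6 of 91 above 500 bases. Among the shortest loci, 25 of 35 outside genes were called higher and 1 of 24 in pseudogenes. Above 100 bases the corresponding numbers were 23 of 55 and 7 of 156. Chosen on the untreated pool, a choice added after the data were seen, they were 12 of 15 and 0 of 17 up to 100 bases, and 6 of 23 and 5 of 129 above. The median difference of those 23 loci outside genes was 0.19. Among named loci, 1 of the passing loci had a span of up to 100 bases, so the shortest loci have almost no named counterpart. Of the named loci, 3 of 14 above 100 and up to 200 bases (21.4%) were called higher, near the 26.2% of the unnamed loci of that span, and 11 of the 220 above 200 and up to 500 bases (5.00%), beside 11.9%. In the combined treatment against untreated, 5 of these 14 named loci (35.7%) were called higher, beside 26.2% of the unnamed ones. For the 220 named loci the number was 55 (25.0%), beside 13.9%. Above 500 bases it was 3.40% of named loci, beside 15.4% of unnamed ones.

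**Figure D3:**
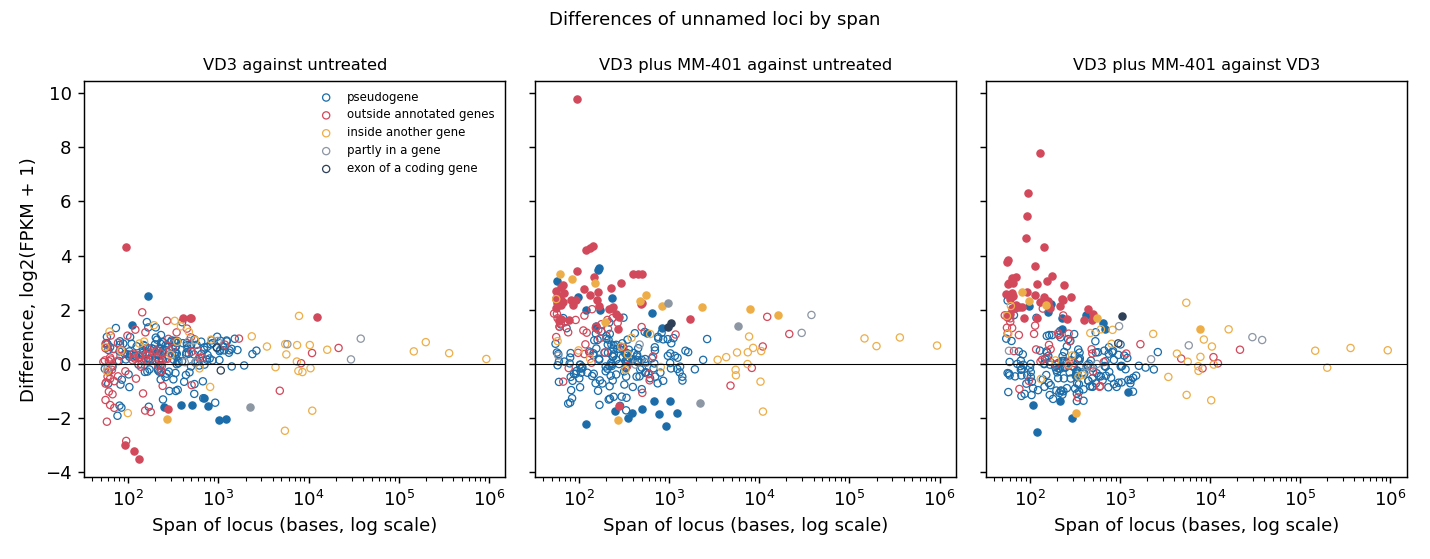
Difference in log2(FPKM + 1) of each of the 318 unnamed loci (vertical axis) by its span in bases (horizontal log axis) for the 3 comparisons, coloured by annotation. Filled points are called, and in the panel of VD3 plus MM-401 against VD3 most of the filled points are the 48 loci outside annotated genes.

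The 48 loci outside genes that were called higher in the combined treatment against VD3 came from 18 chromosomes and all had a single start. Their median span was 94.5 bases, against 208.5 for the other 42. Their median distance to the nearest GENCODE coding gene was 47609 bases, against 20061, and 20 of the 48 lay over 100 kb away, against 6 of 42. The median count was 72.9 untreated, 66.0 with VD3 and 312 with the combined treatment. The last of these medians is high by choice, since the loci were picked for that call, and the other medians lie under the minimum of 100 counts.

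Some of these loci had larger counts. XLOC_024749, 216 bases on chromosome 17 (chr17:63701466-63701681), had 493 FPKM untreated (318 to 668), 463 with VD3 (295 to 631) and 2022 with the combined treatment (1184 to 2860), from counts of 1352, 1270 and 5546. XLOC_025891, 241 bases on chromosome 18, had counts of 284, 159 and 1221. XLOC_054505, 146 bases on chromosome 8 (chr8:53825713-53825858), had 75.6 FPKM untreated (21.7 to 130), 34.8 with VD3 (1.57 to 67.9) and 703 with the combined treatment (378 to 1029). In all 3 the interval of the pool with MM-401 lay above both others, which overlap each other. Other loci among those with the largest differences rested on fewer counts: XLOC_025946 on chromosome 18 had 23.5, 3.09 and 256 counts, XLOC_054573 on chromosome 8 had 5.98, 24.2 and 136, and XLOC_020461 on chromosome 15 had 15.7, 37.9 and 296.

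In 2 cases a locus was listed at 0 in a pool. XLOC_018777 (chr14:84753966-84754059) had counts of 0 untreated, 3.09 with VD3 and 145 with the combined treatment. Set against 3 counts, an assumed upper limit for a count of 0, it was 48.3-fold higher with the combined treatment than untreated. The error of the larger count is not part of this fold. XLOC_035296 (chr3:6156237-6156368) had counts of 5.51, 0 and 115, and on the same assumption was 38.4-fold higher with the combined treatment than with VD3. The rule itself makes these folds large, since a locus listed at 0 in a pool had to reach 100 counts in another. Both loci reached that minimum in the combined pool only. The folds thus cannot be separated from the choice of loci, and no effect of the treatment is read from their size. Both loci were also called with VD3 against untreated, on 3.09 and 5.51 counts, and give no usable fold there. With both loci set at their folds against 3 counts, the medians of the 318 and of the 90 loci stayed as given. XLOC_003470 and XLOC_031939 were also lowest with VD3, with counts of 101, 12.4 and 311, and of 80.03, 8.15 and 103.

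A few loci outside genes lay next to a coding gene. XLOC_038835 ends 68 bases before Bspry and overlaps the upstream window of its start. The sequence shows the 173 bases that it shares with that window (chr4:62479812-62479984, plus strand, RefSeq GRCm38.p6). The stretch also matches the windows of 2 other genes, among 27025 searched, at 80% identity or more over at least 100 bases. Shorter matches were not counted and the rest of the genome was not searched. The number thus does not show how often the stretch recurs, and where its reads came from was not tested.
XLOC_038835: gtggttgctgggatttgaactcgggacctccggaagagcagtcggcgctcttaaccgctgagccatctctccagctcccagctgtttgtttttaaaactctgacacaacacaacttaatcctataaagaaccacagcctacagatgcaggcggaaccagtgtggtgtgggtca
It had 4.34 FPKM untreated (1.32 to 7.37), 16.4 with VD3 (8.63 to 24.1) and 52.5 with the combined treatment (29.0 to 76.1), and no pair of these intervals overlaps. Bspry had 16.1, 23.0 and 22.2 FPKM. XLOC_038675, 309 bases from Ints8, a gene of the Integrator complex that processes small nuclear RNAs, had 2.33, 9.84 and 32.0 FPKM, and Ints8 had 32.1, 19.4 and 125 FPKM. XLOC_036412, which lies 4337 bases from Foxd3, a transcription factor gene, had 2.52, 5.69 and 10.02 FPKM and was called higher with the combined treatment against untreated. Bspry and its locus differed in size of change, and Ints8 and its locus in the direction of the change with VD3.

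Loci in other annotated features were fewer. XLOC_019528, over exons of the Hnrnpa1 gene (chr15:103245634-103246696), which encodes a splicing regulator, had 67.8, 56.9 and 193 FPKM. XLOC_020520 in an exon of Eppk1, a cytoskeletal linker gene, had 3.36, 5.59 and 10.1 FPKM. XLOC_008518 overlaps the ribosomal protein gene Rpl38 in part and had 2.56, 5.38 and 15.7 FPKM. All 3 were called higher with the combined treatment against untreated. The counting is not stated to use strand, so the sense of these RNAs and their overlap with the named gene cannot be told apart.

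Most pseudogene loci differed in the same direction as their coding genes. A coding gene was found for all 128 loci in GENCODE pseudogenes by sequence match, 92 genes for 96 pseudogenes. The median identity was 92.0% (79.9% to 100%). The match is that of the whole pseudogene transcript, and some loci, such as XLOC_020459, lie outside its aligned part. For 126 loci the coding gene passed the minima. In VD3 against untreated, 114 of 126 loci differed in the same direction as the coding gene, Pearson's r across loci was 0.85 and Spearman's rho 0.73. In the combined treatment against untreated 86 of 126 had the same direction (r = 0.59, rho = 0.56), and in the combined treatment against VD3 83 of 126 (r = 0.38, rho = 0.43). These loci share pools, and pieces of a pseudogene share a coding gene, so they are not independent and the correlations are a description. Directions were also uneven among named loci. Of the 10868 above 500 bases, 7808 lay above 0 in VD3 against untreated. The numbers were 7136 in the combined treatment against untreated and 5642 in the combined treatment against VD3. Unrelated pairs would thus also share a direction in many cases.

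Of the 5 loci of this set called lower with VD3, all 5 had a coding gene with a lower value, and the coding gene was called lower for 2, both of them Cd2ap. With the combined treatment against VD3, the differences of the pseudogene loci lay below those of their coding genes in the median. The median gap, the difference of the locus minus that of its coding gene, was -0.34, beside 0.01 for VD3 against untreated. The gap compares changes between pools and not levels. XLOC_018593 in Gm6852 had 76.5, 112 and 42.5 FPKM, beside 67.3, 78.4 and 69.2 for R3hdm2. XLOC_024712 in Trp53-ps had 433, 616 and 329 FPKM, beside 253, 338 and 311 for Trp53, the gene of the tumour suppressor p53. XLOC_020459, in a part of Gm5217 that does not align with its coding gene Prune1, had 253, 311 and 52.8 FPKM.

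XLOC_020686 in Gm7167 had 29.5, 14.1 and 11.7 FPKM, beside 12.9, 7.39 and 2.90 for Hormad1, a meiotic chromosome gene, which was called lower with the combined treatment against untreated.

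Others differed from the coding gene in direction or size. XLOC_022355 in Gm46546 had 974, 648 and 1590 FPKM, while Rps21, a ribosomal protein gene, had 163, 565 and 511. It was called higher in the combined treatment against VD3, and Rps21 was called higher with VD3 against untreated. XLOC_027383 in AC148174.2 was called higher with the combined treatment against untreated at 23.6, 30.5 and 88.3 FPKM, as was Cox6a1, a cytochrome c oxidase subunit gene, at 488, 715 and 1078 FPKM. XLOC_020274 in Gm49138 differed by 0.37 with VD3 and by a further 1.03 with MM-401 added, and Rack1, the gene of a ribosomal scaffold protein, by 0.70 and 0.37.

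**Figure D4:**
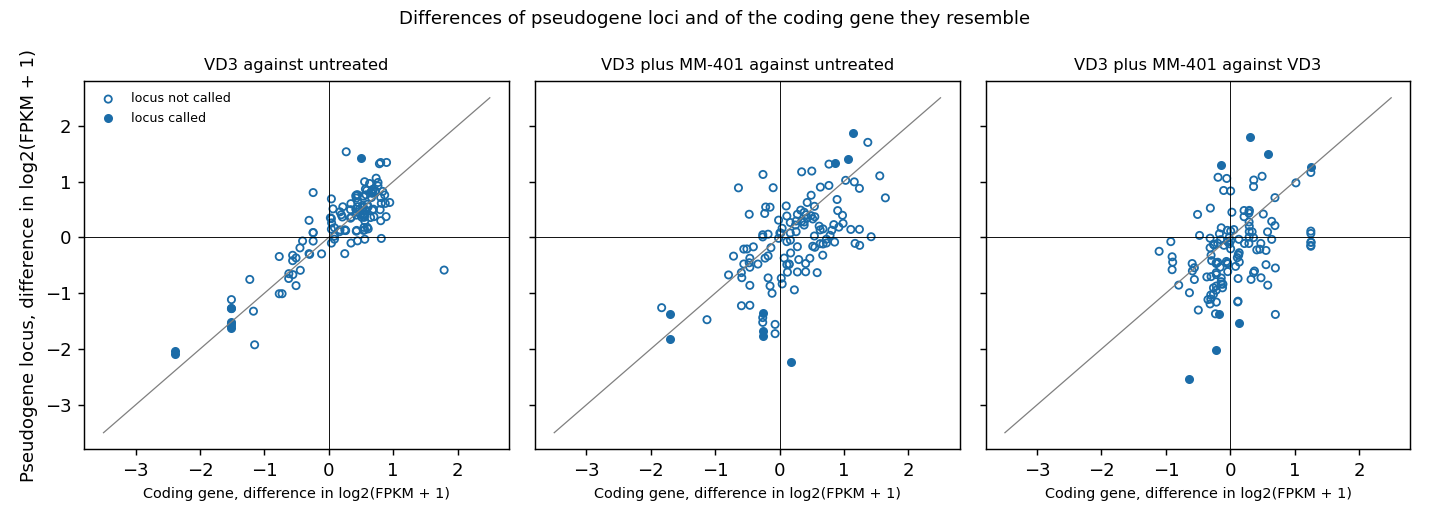
Difference in log2(FPKM + 1) of the 126 pseudogene loci (vertical axis) and of the coding gene that each pseudogene resembles most (horizontal axis), for the 3 comparisons. The grey line marks equal differences, filled points are called, and points lie closest to the line in VD3 against untreated (r = 0.85).

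The assembled parts of the pseudogenes were mostly closer to the coding gene than the rest of the pseudogene. In the 120 loci aligned over at least 80%, identity to the coding gene had a median of 95.5%, and the longest run of identical bases had a median of 68 bases, from 25 to 270. It reached 50 bases in 87 loci. In the 100 loci whose pseudogene had at least 50 aligned bases outside the locus, identity was higher inside the locus in 88 and lower in 11, with medians of 95.2% inside and 90.1% outside. Of the few loci called lower in the combined treatment against VD3, XLOC_022076 in Gm18722, a copy of the splicing coactivator gene Srrm1, had 7.84, 14.4 and 2.80 FPKM, and XLOC_027501 inside the noncoding RNA gene Gm46655 had 4.68, 16.02 and 3.84 FPKM.

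Many loci were neighbours. Within windows of 100 kb, 17 groups of 3 or more unnamed loci held 58 of the 318, and 49 of those lay in pseudogenes. In 29 pseudogenes, 70 loci were pieces of the same pseudogene, up to 4 in one. The estimated count of a locus was a median of 2.97% of that of the coding gene in the untreated pool, 3.10% with VD3 and 2.58% with the combined treatment. Which of these counts came from RNA of the coding gene was not tested.

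The cells carried the markers of their label. All 10 markers of embryonic stem cells passed the minima, with Pou5f1 at 1114 to 2053 FPKM over the pools, and 1 was called higher with VD3 (Lin28a) and 1 with the combined treatment against untreated (Dppa5a). Of 10 markers of fibroblast feeder cells, 3 passed. The list summed to 199 FPKM untreated, 294 with VD3 and 277 with the combined treatment, of which Vim and Fn1 made up most. Vim, at 50.4, 159 and 165 FPKM, was called higher with VD3, while Fn1 stood at 136, 115 and 101 FPKM. Col3a1, at 4.19, 3.93 and 0.553 FPKM, was called lower in the combined treatment against either other pool. Lum was at 0 in every pool, and Col1a1 stood at 0.630, 0.657 and 0.412 FPKM. Of 8 markers of other lineages, 2 passed and none was called. Their part in the values of the unnamed loci was not tested, and in pooled RNA fewer cells of a type and less RNA per cell cannot be told apart. Of 30 annotated noncoding RNAs listed for comparison, 29 were found by name and 25 passed. In the combined treatment against VD3, 0 of the 25 were called higher and 1 lower, with a median of 0.48. Among them Miat, a long noncoding RNA, had 114, 4.52 and 1.82 FPKM, and Epb41l4aos had 82.2, 115 and 239 FPKM.

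At the edge of the rule, the unnamed loci just inside the FPKM minimum reached 5.02 and 5.22 FPKM, and those just outside 4.92 and 4.56 FPKM. The loci just inside the count minimum reached 100.4 and 102 counts, and those just outside reached 98.9 counts each.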

How the data were processed

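RNA-seq of mouse embryonic stem cells was available as 2 tables with 1 pooled column for each of 3 groups. The submitters' processing notes name Cufflinks 2.2.1, TopHat2 2.1.1, SAMtools 1.5 and the build mm10, with neither order nor settings. The authors deposited FPKM with a lower and an upper bound, and estimated counts with a variance; total estimated counts were 62284598 untreated, 73636342 with VD3 and 73499639 with the combined treatment. No test was possible on pooled columns. The 10 named loci above both minima without a valid status were left out. Differences in FPKM used a pseudocount of 1 FPKM, and those in scaled counts a pseudocount on the scale of the counts. Locus starts were counted from 0 in the tables (58.5% of named loci start 1 base before their GENCODE start) and are printed from 1. Coding genes were found with BLAST 2.17.0 (word size 11, E up to 1e-10, plus strand, highest score). Scripts were checked on simulated data. The members and lists were chosen with earlier results of these data known. Loci were named by rule: the 8 highest, up to 5 called per comparison and direction, those at 0 in a pool, those at the edges of the minima, pieces in clusters, and the longest and shortest. Further loci were picked after their values were seen: XLOC_024749, XLOC_025891, XLOC_036412, XLOC_008518, XLOC_020520, XLOC_019528, XLOC_022355, XLOC_027383, XLOC_020686, XLOC_024192 and XLOC_024712. A further coding gene and its pseudogene copies are not reported by name here, but are included in the counts.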

Additional observations from a re-analysis of the deposited data

How the results depend on the processing

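No paired analysis was possible because the tables hold 1 pooled column per group, and for the same reason no replicate could be left out. The counts of calls and the medians were recomputed under other settings, and the 3 that follow were chosen after seeing the data: the minima met in the untreated pool, loci over 150 bases, and intervals at least as wide as counting error. The last setting removed 1 call, XLOC_018777 in VD3 against untreated. It added no width to a count of 0, so it did not test the call of XLOC_035296 on 0 against 5.51 counts. A pseudocount of 0.1 or 5 FPKM left all counts within 1.5 times. Relative to the median of all loci that pass, the median with VD3 against untreated was -0.021, and with VD3 plus MM-401 against untreated 0.15. The setting of counts scaled to the pool total also puts the pseudocount and the intervals on the scale of the counts. There the median of all loci with VD3 against untreated is 0.14 in place of 0.36. VD3 against untreated gave 3 higher and 20 lower with a median of 0.063. VD3 plus MM-401 against untreated gave a median of 0.17, and VD3 plus MM-401 against VD3 gave 3 lower. How much of this came from the scaling, the pseudocount or the intervals was not tested. With 10 FPKM and 500 counts, which left 107 loci, the numbers higher and lower were 4 and 5 for VD3 against untreated, 27 and 5 for VD3 plus MM-401 against untreated, and 21 and 1 for VD3 plus MM-401 against VD3. The 154 loci that share no base with an exon gave 8 lower and a median of 0.24, 7 lower and a median of 1.37, and 1 lower and a median of 1.11 in that order. On 2-fold alone the numbers higher and lower were 28 and 36, 112 and 27, and 96 and 23. With the minima met in the untreated pool, the changed numbers were 3 higher with VD3, 23 higher with VD3 plus MM-401 against untreated, and 24 higher and 3 lower against VD3. The median difference there was 0.19 with VD3 against untreated, 0.10 with VD3 plus MM-401 against untreated and -0.08 against VD3. Loci over 150 bases gave 36 higher against untreated and 25 higher against VD3 with VD3 plus MM-401. A minimum of 5 FPKM alone took 761 unnamed loci. Fewer loci enter the settings with fewer loci, and the cause of the other changes was not tested.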
